A study of Mus musculus with 9 samples.

Results

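Transcript levels in macrophages given macrophage exosomes, whatever the genotype of the cells that released them, were set against those in macrophages given PBS. The comparison used all 9 libraries of the study, 6 of exosome-treated cells and 3 of PBS-treated cells, and all 13815 genes expressed above a count filter out of 55536 in the deposited table. It asked which transcripts of the receiving macrophage differ after macrophage exosomes, with equal weight for each of the exosome groups.

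All recipient cells were bone marrow-derived macrophages (BMDM) with the genotype label WT, grown from the marrow of male mice aged 6 to 12 weeks in medium with 10% fetal bovine serum. M-CSF, the growth factor that turns marrow progenitors into macrophages, was given at 25 ng/mL over 6 days in every group. One group then received exosomes from wild-type BMDM (labelled WT-BMDM-exo) and another received exosomes from BMDM of ApoE-deficient mice (EKO-BMDM-exo), both at 2e+09 particles per mL for 18 hours. The third group received PBS for the same time. Each group had 3 libraries, called biological replicates in the design text. The sources used here do not say whether replicates came from separate mice or separate exosome preparations, so p-values reflect library-to-library spread, which may be technical. They do not say how the vesicles were isolated either, and none of the groups received a vesicle-free preparation, so vesicles and other material carried with them cannot be told apart.

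Exosomes are small vesicles that form inside endosomes and are released when those endosomes fuse with the cell surface. They carry membrane lipids, cholesterol, proteins and RNA, and macrophages are among the cells that take them up most readily, mainly by endocytosis. The cargo then passes through the endosomes to the lysosome, an acid compartment kept acid by the V-ATPase proton pump. Macrophages carry many receptors that sense their surroundings, and the amounts of these receptors depend on M-CSF and on inflammatory and interferon signals.

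Total counts per library were 28581306 to 35929596, with 17150 to 18680 genes detected and TMM scaling factors of 0.9947 to 1.009. The macrophage markers Adgre1, Mertk, Fcgr1, Cd68, Csf1r and Lyz2 were expressed in every library and together made up 20200 to 23100 counts per 1000000 counts of the library (CPM). Of markers of other cells, erythroid globin genes, Alas2, Cd79a, Cd8a, Nkg7, Fcer1a and Adipoq were at 0 counts in all 9 libraries, and Ly6g, Elane, Mpo and Cd3e did not exceed 0.51 CPM. Other members of the same lists were detected, with Ighm of the B cell list at 28.9 to 54.8 CPM, Csf3r, Ngp, S100a9 and Ltf of the neutrophil list at up to 184, 12.0, 8.74 and 8.02 CPM, and Cd4 of the T cell list at up to 6.54 CPM. In a principal component analysis, replicate 3 of wild-type exosomes stood apart on component 1 (15.19% of the variance), and replicate 2 of wild-type exosomes and replicate 2 of ApoE-deficient exosomes stood apart at opposite ends of component 2 (15.15%). PBS libraries stood apart on components 3 and 4 (13.95% and 13.13%). Replicate 2 of PBS had the highest score of component 3 (35.59) and the lowest of component 4 (-30.15), and replicate 3 of PBS the highest of component 4 (43.81), against 57.48 on component 1 and 45.4 and -38 on component 2 for the 3 exosome libraries. Counts are also given without those 3 exosome libraries, called the outlying exosome libraries from here on, a choice made after seeing the data, and each PBS library was left out singly. Without those 3, 1 library of wild-type and 2 of ApoE-deficient exosomes remain. Calls lost in that setting thus cannot be told apart from the loss of libraries. Levels are TMM-normalised CPM. Changes are log2 fold changes ± SE of exosomes against PBS from edgeR's quasi-likelihood test, and a gene is called when its Benjamini-Hochberg adjusted p over all genes tested is under 0.05.

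Many transcripts differed after exosomes, most of them by small amounts. Of 13815 genes, 733 were called (5.31%), 348 of them higher (2.52%) and 385 lower (2.79%). Without the 3 outlying exosome libraries 447 genes were called, and without replicate 2 of PBS 479 were. The median change was 0.207 among the genes called higher and -0.237 among those called lower, and 546 of the 733 (74.5%) changed by less than 1.25-fold. A change of 1.5-fold or more was reached by 43 genes, 12 higher and 31 lower. A change of 2-fold or more was reached by 11, of which 2 were higher and 9 lower. All but 12 of the called genes were protein coding.

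Most of the called genes separated the groups library by library. In 586 of the 733 (79.9%), all 6 exosome libraries lay on the same side of all 3 PBS libraries, against 7.93% of all genes tested. All exosome libraries were above PBS in 301 of these (3.99% of all genes tested were) and below in 285 (3.94% were). Calls and separation come from the same library values. The higher share among called genes thus follows largely from how they were chosen and is no added support for the calls. The smallest change that was called fell with the level of the gene. Of the 252 genes at 500 CPM or more, 101 were called (40.1%), and the smallest change called there was 0.0674 in size. Of 4314 genes under 5 CPM, 16 were called (0.371%), none with a change smaller than 0.653. Between 5 and 50 CPM the share was 2.97%, and between 50 and 500 CPM it was 12.2%. Counts of called members in abundant gene families have to be read against these shares.

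**Figure D1:**
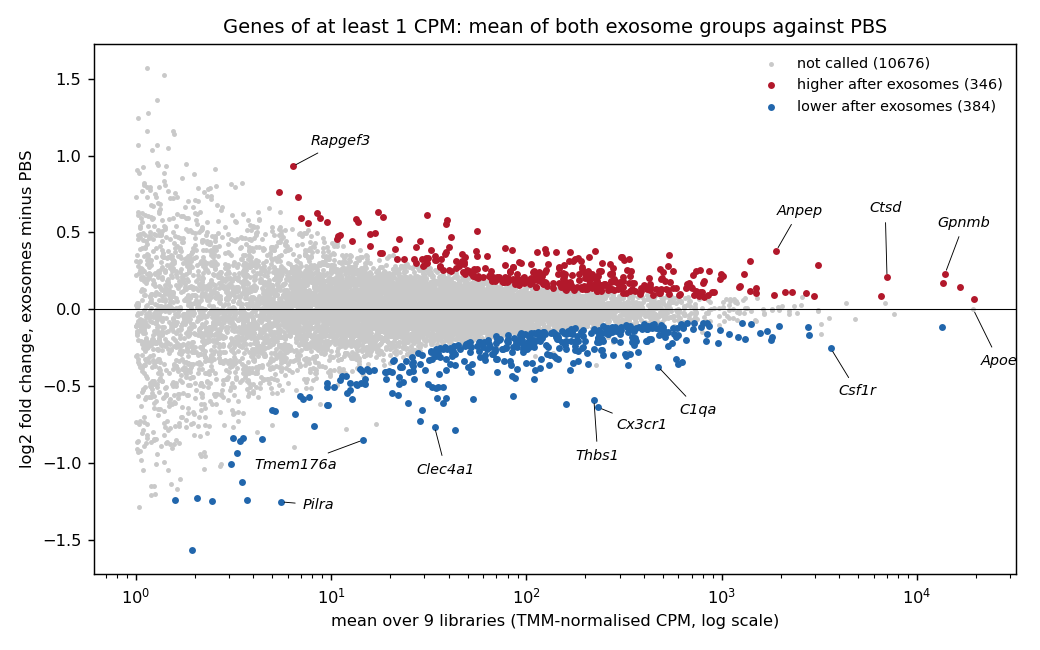
Each point is one of 11406 genes with a mean of at least 1 CPM; the x axis is the mean over 9 libraries in TMM-normalised CPM on a log scale and the y axis the log2 fold change of exosomes (mean of both groups) against PBS. Genes called higher (346) are red and genes called lower (384) blue; the smallest change called narrows from left to right, and Apoe lies on the zero line.

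The lowest p-value was that of Cx3cr1, the receptor for fractalkine (CX3CL1) by which macrophages and monocytes sense neurons and endothelium. Cx3cr1 (ENSMUSG00000052336, chromosome 9, 119901616 to 120069879 in GRCm38, minus strand) had 297, 305 and 317 CPM in the PBS libraries, 196, 198 and 203 after wild-type exosomes, and 194, 196 and 193 after ApoE-deficient exosomes. The PBS libraries were all higher than the exosome libraries, and the values of the exosome groups overlapped each other. Its log2 fold change was -0.64 ± 0.033 (adjusted p = 3.00e-16), and it was -0.62 for wild-type and -0.65 for ApoE-deficient exosomes, which share the PBS libraries.

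Next by p-value among the genes that rose was Anpep, the surface peptidase aminopeptidase N, known as CD13. Its values were 1547, 1587 and 1614 CPM in the PBS libraries, 2057, 2044 and 2122 after wild-type exosomes, and 2042, 1983 and 2116 after ApoE-deficient exosomes, a change of 0.38 ± 0.025 (adjusted p = 2.15e-13). Lgals3, which encodes the sugar-binding protein galectin-3, had 2663, 2587 and 2853 CPM in the PBS libraries, 3318, 3248 and 3355 after wild-type exosomes, and 3297, 3259 and 3324 after ApoE-deficient exosomes (0.29 ± 0.025, adjusted p = 2.16e-10). In both genes every exosome library was above every PBS library. Gpnmb, a glycoprotein of the late endosome and lysosome, rose from 12458 to 14638 CPM (0.23 ± 0.021), a small change seen in 6 of 6 exosome libraries. Plxna1, a receptor for semaphorins, rose by 0.31 ± 0.024, and Tecpr1, a protein that links autophagosomes to lysosomes, by 0.35 ± 0.031. Of the exonic bases of Plxna1, 10.7% also belong to exons of other genes (called exon overlap below). Whether reads were counted by strand is not stated, so reads from such stretches cannot be assigned with certainty.

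Among genes that fell, Csf1r encodes the receptor for M-CSF itself. It had 4192, 3919.7 and 4042 CPM in the PBS libraries, 3517, 3497 and 3399 after wild-type exosomes, and 3438, 3253 and 3290.0 after ApoE-deficient exosomes, with no overlap between PBS and exosome libraries (-0.25 ± 0.023, adjusted p = 7.89e-10; exon overlap 15.1%). Rassf4, a Ras-association domain protein, fell from 730.2 to 576 CPM (-0.34 ± 0.030). Abca1, the transporter that loads cellular cholesterol onto apolipoproteins, changed by -0.32 ± 0.028, with -0.24 after wild-type and -0.40 after ApoE-deficient exosomes (adjusted p of their difference = 0.00456). Thbs1, the matrix glycoprotein thrombospondin-1, had 273, 283 and 296 CPM in the PBS libraries, 193, 229 and 219 after wild-type exosomes, and 171, 169 and 159.9 after ApoE-deficient exosomes, with the ApoE-deficient exosome libraries lowest and no overlap between any of the 3 groups. The pooled change of Thbs1 was -0.59 ± 0.041 (adjusted p = 8.78e-13). In a fit that treats the 6 exosome libraries as one group, so that their difference counts as spread, the adjusted p of Thbs1 was 0.0507.

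Apoe, whose product the donor cells of one exosome group lacked, was not called in the recipient cells. It had 18933, 18963 and 20081 CPM in the PBS libraries, 20164, 19452 and 19681 after wild-type exosomes, and 19394, 18760 and 18725 after ApoE-deficient exosomes. The pooled change was 0.00 ± 0.020 (adjusted p = 0.982), and the groups overlapped.

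By size, the largest fall among genes with a mean of at least 5 CPM was in Pilra, an inhibitory receptor that binds sialylated proteins. Pilra had 7.80, 10.8 and 8.33 CPM in the PBS libraries, 4.36, 3.96 and 4.77 after wild-type exosomes, and 3.16, 2.52 and 4.03 after ApoE-deficient exosomes (-1.25 ± 0.19, adjusted p = 9.67e-06). Its activating counterpart Pilrb1, a near relative on the same stretch of chromosome 5, had 2.63, 4.19 and 3.60 CPM in the PBS libraries, 1.31, 0.818 and 1.21 after wild-type exosomes, and 1.20, 1.26 and 1.25 after ApoE-deficient exosomes (-1.57 ± 0.32, adjusted p = 0.00110). Both were lower in 6 of 6 exosome libraries, but reads shared by such paralogs, and the 15.1% of Pilra exon length that other genes overlap, leave the division between them uncertain. Dmpk, a serine/threonine kinase, fell from 38.9 to 23.5 CPM (-0.73 ± 0.094) and Marcksl1, a regulator of the actin cortex, from 38.4 to 24.7 CPM (-0.66 ± 0.080). Fancd2, a protein of DNA crosslink repair, fell from 6.82 to 4.31 CPM (-0.66 ± 0.19, adjusted p = 0.0277). The call of Fancd2 ended without replicate 1 or 2 of PBS (adjusted p = 0.223 and 0.0645), without replicate 3 of ApoE-deficient exosomes (0.0684) and without the 3 outlying exosome libraries (0.134).

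The larger rises were in genes of low to moderate level. Rapgef3, which encodes EPAC1, an exchange factor activated directly by cyclic AMP, had 4.12, 4.53 and 3.20 CPM in the PBS libraries, 5.61, 9.85 and 9.40 after wild-type exosomes, and 5.20, 7.69 and 7.62 after ApoE-deficient exosomes (0.93 ± 0.20, adjusted p = 0.00258). Without the 3 outlying exosome libraries its change was 0.60, with adjusted p = 0.226. Rps6ka2, a ribosomal S6 kinase of the MAP kinase pathway, had 23.7, 21.5 and 23.3 CPM in the PBS libraries, 32.7, 35.5 and 35.6 after wild-type exosomes, and 36.7, 34.5 and 34.03 after ApoE-deficient exosomes (0.61 ± 0.082, adjusted p = 1.48e-06), with groups well apart. Gprc5b, an orphan G protein-coupled receptor, rose from 12.7 to 19.7 CPM (0.64 ± 0.11; exon overlap 13.1%), Mamdc2, a secreted proteoglycan, from 29.6 to 43.5 CPM (0.56 ± 0.074), Fam198b from 29.5 to 44.1 CPM (0.58 ± 0.079) and the G protein-coupled receptor Mrgpre from 10.4 to 15.4 CPM (0.57 ± 0.13). Il1rn, the antagonist of the interleukin-1 receptor, rose from 7.20 to 10.7 CPM (0.57 ± 0.14). Its call ended without replicate 3 of PBS (adjusted p = 0.0901) or the 3 outlying exosome libraries (0.0916). Fam83h, Abca5, Gpr176, Cnrip1 and Prokr1 were higher by 0.76, 0.60, 0.59, 0.59 and 0.56. Their calls ended without replicate 3 of PBS for Fam83h, Abca5, Cnrip1 and Prokr1 (adjusted p = 0.0775, 0.145, 0.112 and 0.104). Those of Gpr176 (0.250) and Abca5 (0.120) ended without replicate 1 of PBS. Those of Fam83h (0.154), Gpr176 (0.114) and Prokr1 (0.126) ended without replicate 2 of PBS. Of 17 alternatives run, the call of Abca5 ended in 7, that of Prokr1 in 5 and that of Cnrip1 in 2. Those of Fam83h and Gpr176 each ended in 4. None of these 5 calls was kept without the 3 outlying exosome libraries. The changes there were 0.69 for Fam83h, 0.51 for Abca5, 0.52 for Gpr176, 0.53 for Cnrip1 and 0.58 for Prokr1. The exosome groups were not called different from each other in any of these 12 genes.

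**Figure D2:**
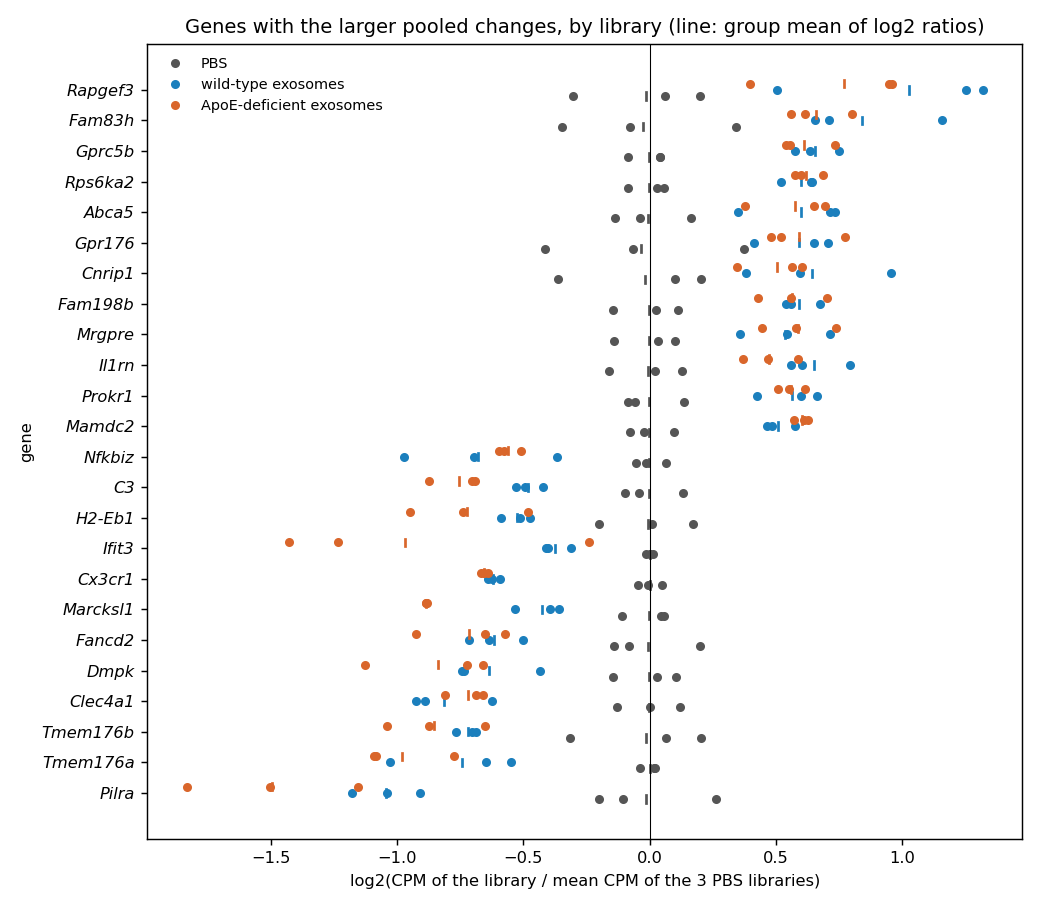
Log2 ratio of each library's CPM to the mean CPM of the 3 PBS libraries (x axis) for the 12 genes with the largest rises and the 12 with the largest falls that met the naming rule (y axis); points are libraries and short lines group means. Points of both exosome groups lie on the same side of all PBS points in each gene, which the naming rule required. The exosome groups were called different from each other in C3 and Marcksl1, and their points overlap in Ifit3.

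Receptors by which a macrophage finds its targets had calls in one direction. Over 14 receptors for chemoattractants tested, the pooled median was -0.21, against -0.005 over all genes tested. It was -0.07 for wild-type and -0.45 for ApoE-deficient exosomes. Of these receptors, 6 were called lower and none higher. Besides Cx3cr1, those named here were the nucleotide receptor P2ry6 at -0.12, the oxysterol receptor Gpr183 at -0.40 and the chemerin receptor Cmklr1 at -0.58. In each of the latter 3, PBS and exosome libraries overlapped. Of 17 alternatives run, the call of Gpr183 ended in 5, that of P2ry6 in 6 and that of Cmklr1 in 8, with adjusted p up to 0.317, 0.105 and 0.365. Without replicate 3 of PBS the change of Cmklr1 was -0.38. Without replicate 2 of ApoE-deficient exosomes, or with both exosome groups as one group, 2 receptors were called, and 3 without each of the PBS replicates or without the 3 outlying exosome libraries.

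The C-type lectins are receptors for sugars of microbes and of dying cells. Of 12 tested, 6 were called lower and none higher, and all 12 had a negative change. The pooled median was -0.47, larger in size than the -0.32 for wild-type and the -0.26 for ApoE-deficient exosomes. It ranged from -0.53 to -0.33 under the alternatives run. Clec4a1 fell most, with 50.6, 46.6 and 42.5 CPM in the PBS libraries, 24.5, 30.2 and 25.1 after wild-type exosomes, and 26.5, 28.9 and 29.5 after ApoE-deficient exosomes (-0.76 ± 0.081, adjusted p = 1.98e-08). The values of the exosome groups overlapped each other, and none reached the lowest PBS value. Clec4a3, an inhibitory receptor, fell from 26.1 to 17.9 CPM (-0.54 ± 0.094) and Clec4e, the receptor Mincle for mycobacterial glycolipid, from 43.2 to 30.3 CPM (-0.51 ± 0.093). Clec4n, which is Dectin-2 and binds fungal mannan, fell from 27.4 to 19.6 CPM (-0.49 ± 0.099; adjusted p = 0.0577 without the 3 outlying exosome libraries).

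These Clec4 genes lie on the same stretch of chromosome 6, a feature that the comparison did not use. Whether every gene between them fell was not examined. Clec4a1 lies at chromosome 6, 122921848 to 122934619, Clec4a3 at chromosome 6, 122952515 to 122969875, Clec4a2 at chromosome 6, 123106428 to 123143999, Clec4n at chromosome 6, 123229843 to 123247021 and Clec4e at chromosome 6, 123281789 to 123289870 of GRCm38. Clec4a2 was lower from 15.7 to 10.9 CPM (-0.53 ± 0.13), with adjusted p = 0.0603 without replicate 2 of PBS. Clec4d, also of the Clec4 family, was not called (-0.04 ± 0.029). Clec7a, which is Dectin-1, the receptor for fungal beta-glucan, was lower by a small amount (-0.16 ± 0.040); its call ended without replicate 1 of PBS (adjusted p = 0.0700), replicate 2 of PBS (0.0528) or the 3 outlying exosome libraries (0.0671). Mrc1, the mannose receptor, and Clec5a were not called (-0.09 ± 0.051 and -0.03 ± 0.091).

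Of 15 genes of Toll-like receptor sensing, 5 were called lower and none higher (median -0.15), and 5 or 6 were called lower under every alternative run. One was called higher without replicate 2 of ApoE-deficient exosomes or the 3 outlying exosome libraries. Cd14, the coreceptor that hands endotoxin to TLR4, had 395, 373 and 400.1 CPM in the PBS libraries, 314, 294 and 302 after wild-type exosomes, and 317, 284 and 305 after ApoE-deficient exosomes (-0.36 ± 0.034, adjusted p = 1.50e-09), with the exosome libraries below every PBS library in both groups. Tlr2, the receptor for bacterial lipoproteins, fell from 102 to 75.4 CPM (-0.43 ± 0.053). The nucleic acid sensors Tlr9 and Tlr8 changed by -0.33 ± 0.050 and -0.16 ± 0.031, and Unc93b1, the chaperone that carries them to endosomes, by -0.16 ± 0.024.

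Of 9 membrane proteins of the Tmem176 and Ms4a families, 5 were called lower and none higher (median -0.35). The group medians were -0.18 for wild-type and -0.56 for ApoE-deficient exosomes. Tmem176a and Tmem176b share a stretch of chromosome 6, from 48833818 to 48847071, and are transcribed in opposite directions. Tmem176b had 69.0, 48.1 and 62.7 CPM in the PBS libraries, 36.8, 35.2 and 37.2 after wild-type exosomes, and 32.7, 38.2 and 29.1 after ApoE-deficient exosomes (-0.78 ± 0.085, adjusted p = 2.76e-08). Tmem176a had 21.0, 21.0 and 20.2 CPM in the PBS libraries, 14.2, 13.2 and 10.2 after wild-type exosomes, and 12.1, 9.78 and 9.73 after ApoE-deficient exosomes (-0.85 ± 0.12, adjusted p = 3.31e-06). In both genes no exosome library reached the lowest PBS value. Ms4a6b fell from 26.3 to 20.5 CPM (-0.38 ± 0.091) and Ms4a6c from 80.6 to 64.8 CPM (-0.32 ± 0.061), although exons of other genes overlap 53.1% of Ms4a6c. Ms4a14 was lower at -0.22 ± 0.050, with adjusted p = 0.0783 without replicate 1 and 0.0837 without replicate 2 of PBS.

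Among 11 Fc receptors and their adaptors, 2 were called lower and none higher. Fcgr1, the high-affinity receptor for IgG, had 130.4, 143 and 141 CPM in the PBS libraries, 119, 119 and 127 after wild-type exosomes, and 91.5, 89.7 and 96.0 after ApoE-deficient exosomes (-0.38 ± 0.044). Its change was -0.18 after wild-type and -0.58 after ApoE-deficient exosomes, and the difference between them was called (adjusted p = 9.58e-06). With both exosome groups as one group, the adjusted p of Fcgr1 was 0.240 and none of the list was called. By limma-voom and without replicate 3 of PBS 1 was called higher. Without replicate 1 of PBS 4 were called lower, and 1 without replicate 2 or 3 of PBS, replicate 1 of wild-type exosomes or any 1 library of ApoE-deficient exosomes. Of 14 paired inhibitory receptors, 2 were lower, Pilra and Pilrb1, and Cd33, a receptor for sialic acid, was higher at 0.36 ± 0.081 (adjusted p = 0.0704 without replicate 1 of PBS). Higher calls among the paired receptors numbered 3 by DESeq2, by limma-voom, with a minimum count of 50 and with the replicate block, which is more than the 2 lower calls of each, and 2 with no filter on low counts or without replicate 1 of ApoE-deficient exosomes, replicate 2 of wild-type exosomes or replicate 2 of PBS.

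Complement had the highest share of members called lower among the 39 lists, though another list had a higher share under 9 of the 17 alternatives. All 13 complement components and receptors tested had a negative change (median -0.35, with -0.19 for wild-type and -0.44 for ApoE-deficient exosomes). Of these, 8 were called lower (61.5%, against 2.79% of all genes tested) and none higher. The share was 46.2% without the 3 outlying exosome libraries or without replicate 1 of PBS and 38.5% with both exosome groups as one group. Complement is a set of plasma proteins, many made by macrophages, that tag particles and dying cells for uptake. C3, its central component, had 227, 201 and 194 CPM in the PBS libraries, 147, 155 and 144 after wild-type exosomes, and 129, 128 and 113 after ApoE-deficient exosomes (-0.62 ± 0.045, adjusted p = 3.84e-12), with the PBS libraries highest and the ApoE-deficient exosome libraries lowest. C1qa, a chain of the C1q recognition protein, had 553, 563 and 548 CPM in the PBS libraries, 449.7, 459 and 462 after wild-type exosomes, and 409, 396 and 402 after ApoE-deficient exosomes (-0.37 ± 0.027, adjusted p = 3.84e-12). C1qb and C1qc, the partner chains encoded beside it at chromosome 4, 136880129 to 136898803, fell from 1969 to 1742 CPM (-0.18 ± 0.025) and from 1691 to 1521 CPM (-0.16 ± 0.025).

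In C3 and the C1q genes, the exosome groups also differed from each other, with lower values after ApoE-deficient exosomes. The difference was -0.27 ± 0.054 for C3, -0.18 ± 0.032 for C1qa, -0.15 ± 0.029 for C1qb and -0.18 ± 0.029 for C1qc (adjusted p = 0.00399, 0.000877, 0.00380 and 0.000183). In C1qc the libraries of wild-type exosomes overlapped those of PBS. With both exosome groups as one group, C1qc was not called (adjusted p = 0.221) and 5 of the 13 complement genes were. Itgam, a subunit of the receptor for cleaved C3, fell from 131 to 99.5 CPM (-0.40 ± 0.049), but exons of other genes overlap 68.7% of its exon length.

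**Figure D3:**
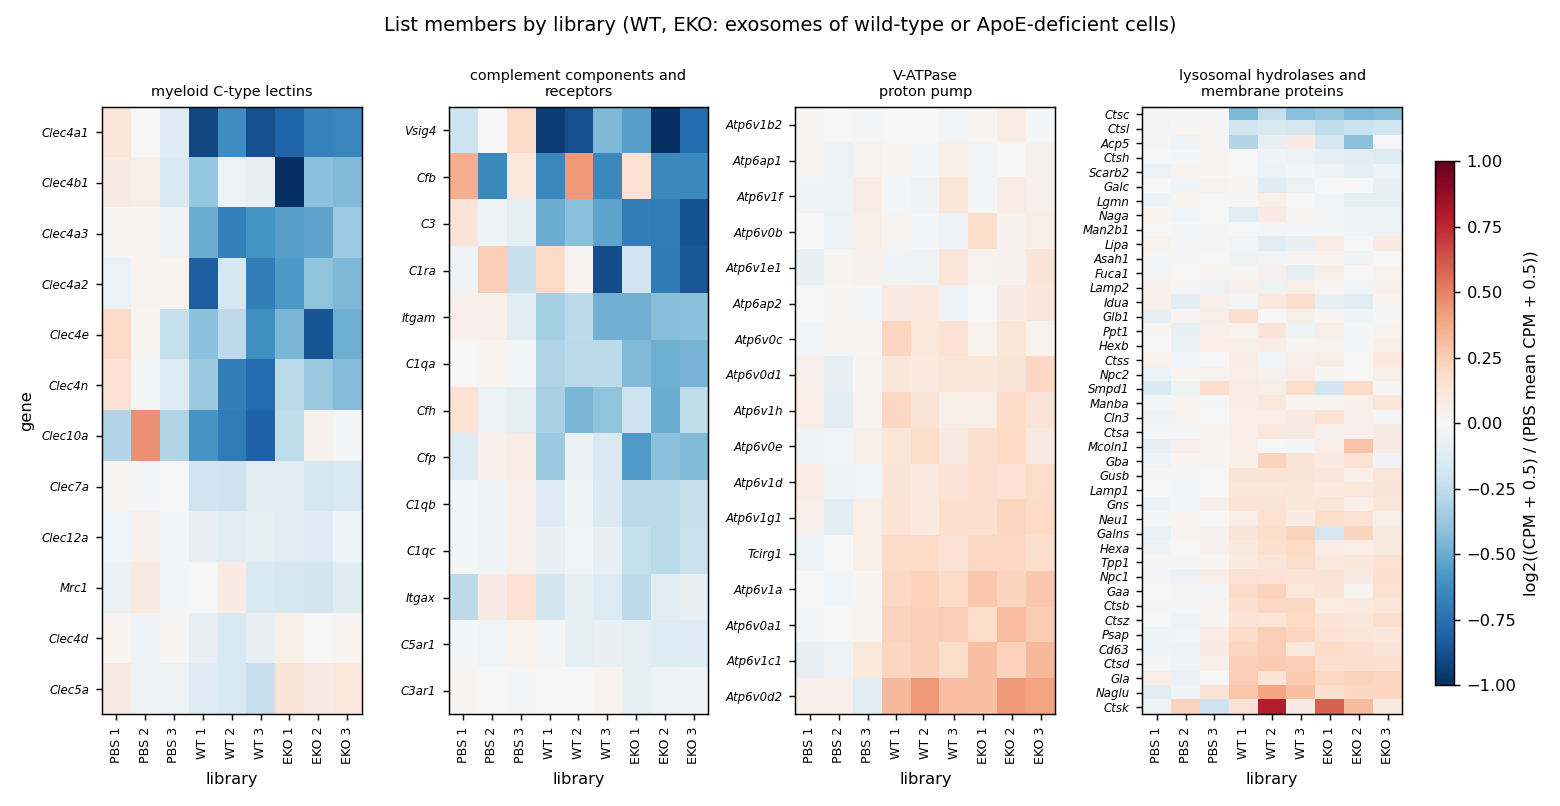
Log2 ratio of each library to the mean of the 3 PBS libraries, after adding 0.5 CPM, for every tested member of 4 gene lists (rows) in the 9 libraries (columns); red is higher, blue lower, and the colour scale ends at -1 and 1. The lectin and complement panels are mostly blue in the 6 exosome columns, and the V-ATPase panel is red in most of its lower rows, from Atp6v0c down to Atp6v0d2.

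The macrophage lineage genes called lower changed by small amounts. Of 24 tested, 11 were called lower and 1 higher (median -0.12), and between 8 and 12 were called lower under the alternatives run. Higher calls numbered 2 or 3 by DESeq2, by limma-voom, with a minimum count of 50, with the replicate block, and without replicate 1 of ApoE-deficient exosomes, replicate 2 of wild-type exosomes or the 3 outlying exosome libraries. Besides Csf1r and Fcgr1, the surface protein Adgre1, known as F4/80, fell from 1438 to 1258 CPM (-0.19 ± 0.025). Lpl, the lipoprotein lipase that macrophages secrete, fell from 3015 to 2686 CPM (-0.17 ± 0.025). The member called higher was Gas6, a bridging ligand for dying cells, with 656, 643 and 669 CPM in the PBS libraries, 792, 796 and 778 after wild-type exosomes, and 789.6, 758 and 767 after ApoE-deficient exosomes (0.25 ± 0.026, adjusted p = 1.94e-08). Cd68, a lysosomal glycoprotein of macrophages, was not called (0.08 ± 0.025), but was called higher by DESeq2 (adjusted p = 0.0308), with a minimum count of 50 (0.0355), with the replicate block (0.00953) and without replicate 1 of ApoE-deficient (0.0299) or replicate 2 of wild-type exosomes (0.0366).

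Summed over the 6 defining macrophage markers, the level was 21900 to 23100 CPM in PBS libraries, 20400 to 21000 after wild-type exosomes and 20200 to 21100 after ApoE-deficient exosomes. In bulk RNA, fewer cells of a type and less RNA per cell cannot be told apart. The summed neutrophil markers were 195 to 201 CPM after PBS, 190 to 200 after wild-type and 169 to 184 after ApoE-deficient exosomes, carried mainly by Csf3r, with none of the 6 tested members called. Summed stromal markers ranged from 13.4 to 80.3 CPM after PBS, 22.1 to 41.2 after wild-type and 6.74 to 39.0 after ApoE-deficient exosomes, and none of 6 tested was called. In the remaining marker lists of other cell types, the members called were Vwf (endothelial) and Fabp4 (adipocyte), both higher. The part of these cells in the results above was not tested.

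NF-kB is the transcription factor of inflammatory signalling. Of 27 of its target and feedback genes tested, 11 were called lower, none higher and 16 not called (median -0.20; 7 lower without the 3 outlying exosome libraries). Feedback regulators of the pathway were among them: Tnip3, an inhibitor of NF-kB signalling, fell from 44.7 to 30.0 CPM (-0.58 ± 0.074, adjusted p = 6.94e-07), and Nfkbiz, a nuclear regulator, from 32.0 to 21.0 CPM (-0.61 ± 0.098). Icam1, the adhesion ligand of leukocyte integrins, had 84.0, 79.2 and 82.4 CPM in the PBS libraries, 68.6, 73.6 and 67.9 after wild-type exosomes, and 59.8, 63.3 and 60.7 after ApoE-deficient exosomes (-0.32 ± 0.054, adjusted p = 6.47e-05; exon overlap 11.7%). The cytokine Il1b, named after its values were seen, was low everywhere, with 4.49, 3.07 and 3.85 CPM in the PBS libraries, 2.50, 2.23 and 2.87 after wild-type exosomes, and 1.34, 0.629 and 1.04 after ApoE-deficient exosomes (-1.25 ± 0.29, adjusted p = 0.00469). The genes Il6, Il12b and Nos2 did not pass the count filter. Clec4e and Marcksl1, described above, are also on this list.

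Of 12 chemokines, 3 were called lower and 1 higher. Ccl9 had 205, 202 and 198 CPM in the PBS libraries, 163, 162 and 152 after wild-type exosomes, and 157, 154 and 159.8 after ApoE-deficient exosomes (-0.35 ± 0.037, adjusted p = 2.16e-08), with no overlap. Cxcl16, a membrane-bound chemokine that also takes up oxidised lipoprotein, fell from 387 to 316 CPM (-0.29 ± 0.031; exon overlap 18.3%). Cxcl14 was lower (-0.22 ± 0.054), and its call ended without replicate 2 or 3 of PBS (adjusted p = 0.0614 and 0.138) or the 3 outlying exosome libraries (0.0519). Ccl3, an inflammatory chemokine, was higher (0.32 ± 0.078), with adjusted p = 0.0609 without replicate 2 of PBS.

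Immediate early genes, which respond within minutes to growth factor and stress signals, went both ways. Of 24 tested, 5 were called lower and 2 higher (median -0.19; 3 lower without replicate 1 of PBS; 1 higher without replicate 1 or 2 of PBS, replicate 3 of ApoE-deficient exosomes, replicate 2 of wild-type exosomes or the 3 outlying exosome libraries). Fos had 103, 110.2 and 114 CPM in the PBS libraries, 74.3, 84.7 and 72.3 after wild-type exosomes, and 68.6, 69.8 and 72.3 after ApoE-deficient exosomes (-0.56 ± 0.053, adjusted p = 1.35e-09), with all exosome libraries below the lowest PBS library. Its dimer partners differed: Junb fell from 167 to 144 CPM (-0.21 ± 0.041) while Jun rose from 191 to 218 CPM (0.19 ± 0.036). Zfp36, an RNA-binding protein that destabilises cytokine mRNAs, fell from 197 to 171 CPM (-0.21 ± 0.038). Nr4a1, an orphan nuclear receptor, was lower (-0.55 ± 0.13), with adjusted p = 0.0990 without replicate 1 of PBS.

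Interferon-stimulated genes had negative changes in 45 of 48 tested, with a median of -0.18, but 8 were called lower and none higher. The group medians were -0.08 for wild-type and -0.30 for ApoE-deficient exosomes, and 7 of the 48 differed between the exosome groups. Rtp4, a chaperone of receptors induced by interferon, had 58.9, 65.2 and 62.7 CPM in the PBS libraries, 50.8, 51.6 and 52.9 after wild-type exosomes, and 42.0, 38.8 and 46.7 after ApoE-deficient exosomes (-0.41 ± 0.065, adjusted p = 2.85e-05; exon overlap 13.9%). Samhd1, which breaks down nucleotides needed by retroviruses, changed by -0.18 ± 0.031, with -0.18 after wild-type and -0.18 after ApoE-deficient exosomes. Parp14, an ADP-ribosyltransferase, changed by -0.21 ± 0.035 (adjusted p = 0.0501 with both exosome groups as one group). Ifit2, which binds viral RNA, had 21.9, 18.8 and 26.3 CPM after ApoE-deficient exosomes, against 32.1, 44.5 and 38.1 in PBS and 35.4, 28.0 and 36.6 after wild-type exosomes. The libraries of wild-type exosomes thus overlapped PBS. The call of Ifit2 ended without replicate 2 of PBS (adjusted p = 0.0662) and with both exosome groups as one group (0.449). The number of interferon-stimulated genes called lower was 3 without replicate 2 of PBS or with both exosome groups as one group, 5 without replicate 2 of ApoE-deficient exosomes, 15 without replicate 3 of ApoE-deficient exosomes and 5 without the 3 outlying exosome libraries.

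Presentation of peptides on MHC class II had 3 of 12 genes called lower and none higher (median -0.29, with -0.24 for wild-type and -0.45 for ApoE-deficient exosomes). Without replicate 1 of PBS the median was -0.51 and 4 were called, the added gene being H2-Ab1, another class II chain, which was not called with all libraries (-0.39 ± 0.12) but was also called by DESeq2 (adjusted p = 0.0482) and limma-voom (0.0270). Cd74, the invariant chain that escorts class II molecules, had 66.3, 65.9 and 72.7 CPM in the PBS libraries, 55.8, 52.3 and 42.0 after wild-type exosomes, and 42.5, 39.9 and 42.5 after ApoE-deficient exosomes (-0.58 ± 0.070, adjusted p = 2.51e-07), and no exosome library overlapped PBS. H2-Aa and H2-Eb1, the class II chains themselves, were lower after exosomes (-0.59 ± 0.13 and -0.62 ± 0.14), from means of 16.3 to 11.0 CPM and 12.4 to 8.11 CPM; in H2-Aa 1 library of wild-type exosomes overlapped PBS. Without replicate 3 of PBS their adjusted p values were 0.0543 and 0.0637, and Cd74 was then the only class II gene called. Of 17 MHC class I genes, B2m, the light chain, and H2-Q4 were called lower at -0.11 and -0.21 (exon overlap of H2-Q4 19.1%) and H2-D1 higher at 0.09, with uncertain division of reads among these near relatives. None was lower without replicate 2 of PBS or of either exosome group, or the 3 outlying exosome libraries, and 3 were without replicate 3 of ApoE-deficient exosomes. H2-D1 was not called without replicate 1 or 2 of PBS, and 4 of the 6 exosome libraries gave the same when left out singly. By limma-voom neither H2-D1 nor B2m was called (adjusted p = 0.321 and 0.226). With both exosome groups as one group neither H2-D1 nor H2-Q4 was called (adjusted p = 0.0851 and 0.0561).

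In the lysosome, higher calls outnumbered lower ones. Of 42 lysosomal hydrolases and membrane proteins tested, 14 were called higher, 2 lower and 26 not called, and 11 had a negative change (median 0.07). Under every alternative run 12 to 16 were called higher. The share called in either direction was 38.1%, against 5.31% of all genes tested and 40.1% of those at 500 CPM or more. Ctsd, the aspartic protease cathepsin D, had 6279.8, 6216 and 6580.5 CPM in the PBS libraries, 7541, 7615 and 7559 after wild-type exosomes, and 7098, 7112 and 7158 after ApoE-deficient exosomes (0.21 ± 0.020, adjusted p = 4.01e-09). Psap, the precursor of the saposins that present sphingolipids to lysosomal enzymes, rose from 12523 to 14126 CPM (0.17 ± 0.021), and Ctsb, cathepsin B, from 15425 to 17086 CPM (0.15 ± 0.019). Each of these was higher in 6 of 6 exosome libraries than in any PBS library, and each is at a level where 40.1% of all genes were called. Exons of other genes overlap 34.4% of Ctsd and 12.8% of Ctsb. The tetraspanin Cd63, which marks late endosomes and exosomes, rose from 265 to 299 CPM (0.18 ± 0.036) and Npc1, which moves cholesterol out of the lysosome, from 613 to 674 CPM (0.14 ± 0.029).

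The lysosomal proteases did not move as one. Ctsc, cathepsin C, which activates the serine proteases of granules, had 202, 195 and 196 CPM in the PBS libraries, 144, 169 and 148 after wild-type exosomes, and 151, 145 and 147 after ApoE-deficient exosomes (-0.39 ± 0.042, adjusted p = 2.00e-08). Ctsl, cathepsin L, fell from 719.5 to 627 CPM (-0.20 ± 0.026; exon overlap 26.8%). In both, every exosome library was below every PBS library, the reverse of Ctsd and Ctsb.

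The V-ATPase is the proton pump that acidifies the lysosome. All 17 of its subunit genes tested had a positive change, 8 were called higher and none lower, and the median was 0.13. The share called higher was 47.1%, against 2.52% of all genes tested. By level, 12.2% of all genes were called in either direction at 50 to 500 CPM and 40.1% at 500 CPM or more. Atp6v1a, the catalytic subunit, had 890.1, 872 and 900.1 CPM in the PBS libraries, 1023, 1039.7 and 1015 after wild-type exosomes, and 1072, 1034 and 1068 after ApoE-deficient exosomes (0.23 ± 0.025, adjusted p = 2.76e-08). Atp6v0a1, a subunit of the membrane sector, rose from 443 to 524 CPM (0.24 ± 0.029) and Tcirg1, its a3 counterpart in osteoclasts and macrophage lysosomes, from 744 to 846 CPM (0.18 ± 0.027). Atp6v1c1 rose by 0.25 ± 0.038. The largest change was in Atp6v0d2, a subunit enriched in osteoclasts, with 33.8, 33.7 and 30.1 CPM in the PBS libraries, 40.9, 44.2 and 40.5 after wild-type exosomes, and 40.3, 43.9 and 43.1 after ApoE-deficient exosomes (0.37 ± 0.074, adjusted p = 0.000790). The number called higher was 5 without replicate 1 or replicate 2 of ApoE-deficient exosomes, without replicate 1 of wild-type exosomes, without replicate 2 of PBS, without the 3 outlying exosome libraries, and with both exosome groups as one group.

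The promoters of lysosomal genes often hold the CLEAR element, a palindrome bound by the transcription factors TFEB and TFE3. Stretches of 160 bases before the start of Ctsd and of Atp6v1a (RefSeq, GRCm38.p6, both on the minus strand, read 5′ to 3′ towards the gene) are shown because both genes rose in all exosome libraries and hold the core TCACGTGA, in capitals. The stretch of Ctsd is chr7:142387828-142387987 and that of Atp6v1a is chr16:44139260-44139419.
Ctsd: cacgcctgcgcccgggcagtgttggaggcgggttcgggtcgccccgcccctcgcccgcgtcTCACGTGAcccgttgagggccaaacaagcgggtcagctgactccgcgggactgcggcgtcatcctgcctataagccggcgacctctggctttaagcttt
Atp6v1a: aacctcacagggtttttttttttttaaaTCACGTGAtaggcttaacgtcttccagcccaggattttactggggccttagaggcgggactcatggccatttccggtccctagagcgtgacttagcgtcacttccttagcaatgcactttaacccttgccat

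The core starts 99 bases before the start of Ctsd and 132 before that of Atp6v1a. In the 250 bases before the start, TCACGTGA was found in 1.8% of the 9971 tested genes with a RefSeq window, in 4.09% of genes called higher (11 of 269), in 0.671% of genes called lower (2 of 298) and in 15.2% of lysosomal genes (5 of 33). It was found in 1 of 12 V-ATPase genes. Its inner E-box CACGTG, which every TCACGTGA contains, was found in 9.97% of all, 14.5% of those higher and 6.04% of those lower. Both motifs are palindromes, so both strands are the same. Beside Ctsd and Atp6v1a, the genes called higher with the core, of which these are named after their values were seen, included Gla, a lysosomal galactosidase, at 0.22, Dpp7, a peptidase of intracellular vesicles, at 0.29 and Igf2r, the receptor that sorts hydrolases to lysosomes, at 0.14. Others called higher with the core, among them Osbpl8, Arfgef2, Zfyve26, Taf6l and Eif4g1, are on neither the lysosomal nor the V-ATPase list. The 2 called lower with the core were Picalm, a clathrin adaptor, at -0.18 and Dazap2 at -0.11. Of the 5 lysosomal genes with the core, Ctsd and Gla were called, and Ctsa, Cln3 and Mcoln1 were not.

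The interferon-stimulated response element was searched as GAAANNGAAA on both strands. It was found in 3.4% of the tested genes with a window, 2.97% of those called higher, 9.4% of those called lower (28 of 298) and 52.8% of the interferon-stimulated genes (19 of 36). The 160 bases before the start of Ifit3 (chr19:34583369-34583528, plus strand) and of Trim30a (chr7:104465194-104465353, minus strand) are shown as members that carry it, in capitals, here in the opposite orientation TTTCNNTTTC. Trim30a has 2 RefSeq windows, and the first that holds the element is shown. Ifit3 holds it at 156 and at 122 bases before the start and Trim30a at 36.
Ifit3: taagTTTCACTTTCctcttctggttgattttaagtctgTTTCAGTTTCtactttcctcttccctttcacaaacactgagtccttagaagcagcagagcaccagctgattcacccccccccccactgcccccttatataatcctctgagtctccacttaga
Trim30a: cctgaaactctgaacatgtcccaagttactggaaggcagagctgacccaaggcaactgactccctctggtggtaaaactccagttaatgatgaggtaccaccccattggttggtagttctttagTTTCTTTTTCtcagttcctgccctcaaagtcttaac

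Ifit3, whose product binds other Ifit proteins, had 12.5, 12.6 and 12.4 CPM in the PBS libraries, 10.1, 9.43 and 9.47 after wild-type exosomes, and 5.32, 4.65 and 10.6 after ApoE-deficient exosomes (-0.62 ± 0.17, adjusted p = 0.0199), with replicate 3 of ApoE-deficient exosomes far above the other replicates of that group. Its call ended without replicate 1 or 2 of ApoE-deficient exosomes (adjusted p = 0.0684 and 0.0766) and without any 1 PBS library (0.0739, 0.0880 and 0.0672). It also ended with both exosome groups as one group (0.121). Without the 3 outlying exosome libraries the change of Ifit3 was -0.48, and it was not called. Trim30a, which restrains TLR signalling, fell from 104 to 90.8 CPM (-0.20 ± 0.050), and its adjusted p was 0.124 without replicate 2 of PBS and 0.116 without the 3 outlying exosome libraries. The sterol element TCACNCCAC was found in 1.27% of tested genes, 1.49% of those higher and 2.68% of those lower. The amino acid response element TGATGNAA was found in 2.56%, 1.12% and 4.03%, the cyclic AMP element TGACGTCA in 3.07%, 2.6% and 2.35%, and the PU.1 site GAGGAAGT in 3.22%, 2.6% and 4.03%, in that order. A match describes letters in a window and not a bound site.

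Lipid storage genes had calls in one direction. Of 21 genes of fatty acid synthesis and lipid storage, 6 were called higher, none lower and 15 not called, and 7 had a negative change (median 0.14; 5 to 8 higher under the alternatives run). Fabp5, a carrier of fatty acids in the cytosol, had 96.9, 110.0 and 101 CPM in the PBS libraries, 136, 137 and 145 after wild-type exosomes, and 129, 132 and 131 after ApoE-deficient exosomes (0.39 ± 0.045, adjusted p = 8.22e-08). Its relative Fabp4 rose from 33.1 to 43.8 CPM (0.41 ± 0.086); it also marks adipocytes, whose markers Adipoq, Cidec and Lep were at 0 in all libraries. Soat1, which esterifies cholesterol for storage, rose from 615 to 688 CPM (0.16 ± 0.028). The lipid droplet coats Plin2 and Plin3 were higher at 0.14 ± 0.028 and 0.24 ± 0.052. The call of Plin2 ended without the 3 outlying exosome libraries (adjusted p = 0.102) and that of Plin3 without replicate 2 of PBS (0.0740).

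Of 24 genes of cholesterol synthesis and uptake, 23 had a positive change (median 0.18), 3 were called higher and none lower. Srebf2, a transcription factor that controls the pathway, and its regulator Insig1 were called higher at 0.17 ± 0.048 and 0.28 ± 0.083, but the libraries overlapped. Without replicate 2 of PBS or without the 3 outlying exosome libraries 1 gene was called, and neither of these was (adjusted p = 0.397 for Srebf2 and 0.307 for Insig1 without replicate 2 of PBS). The call of Srebf2 also ended without replicate 1 of ApoE-deficient exosomes or of PBS, and without replicate 3 of wild-type exosomes. That of Insig1 also ended without replicate 2 or 3 of ApoE-deficient exosomes, 1 or 3 of wild-type exosomes and 3 of PBS. With both exosome groups as one group Insig1 was not called either (adjusted p = 0.0593). Of 17 genes of cholesterol efflux and targets of LXR, the nuclear receptor for oxysterols, Abca1 and Lpl were lower and Npc1 higher, while Abcg1 was at -0.08 ± 0.030 and was not called. Without replicate 1 of PBS 2 were higher and 3 lower.

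Some genes differed between the exosome groups as well as from PBS. Of the 733 genes called, 36 (4.91%) also differed between the exosome groups, against 0.695% of all genes tested (96 genes). These shares are not alike in level: the median was 125 CPM over the called genes and 18 CPM over all genes tested. In the pooled comparison smaller changes were called at higher levels. Of the 36, 27 were among the genes called lower and the other 9 among those called higher. In 3 of the 36 the groups had opposite signs. Gpx1, a selenium-dependent glutathione peroxidase, had 393, 378 and 409 CPM in the PBS libraries, 571, 559.9 and 552 after wild-type exosomes, and 333, 345 and 330.3 after ApoE-deficient exosomes. Its pooled change of 0.14 ± 0.030 (adjusted p = 0.00180) was thus the mean of 0.51 and -0.23. Selenow and Gpx3, also selenoproteins, had 0.80 and 0.53 after wild-type and -0.20 and -0.01 after ApoE-deficient exosomes; without replicate 2 of PBS neither was called in the pooled comparison (adjusted p = 0.187 and 0.0712). Of 20 selenoproteins, 5 were called higher in the pooled comparison, but none with both exosome groups as one group, and 1 without replicate 2 of PBS, 3 without replicate 1 of PBS, without replicate 3 of ApoE-deficient exosomes or without the 3 outlying exosome libraries. Without those 3 libraries the wild-type exosome group holds 1 library, so calls of single genes between the exosome groups are not given there.

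**Figure D4:**
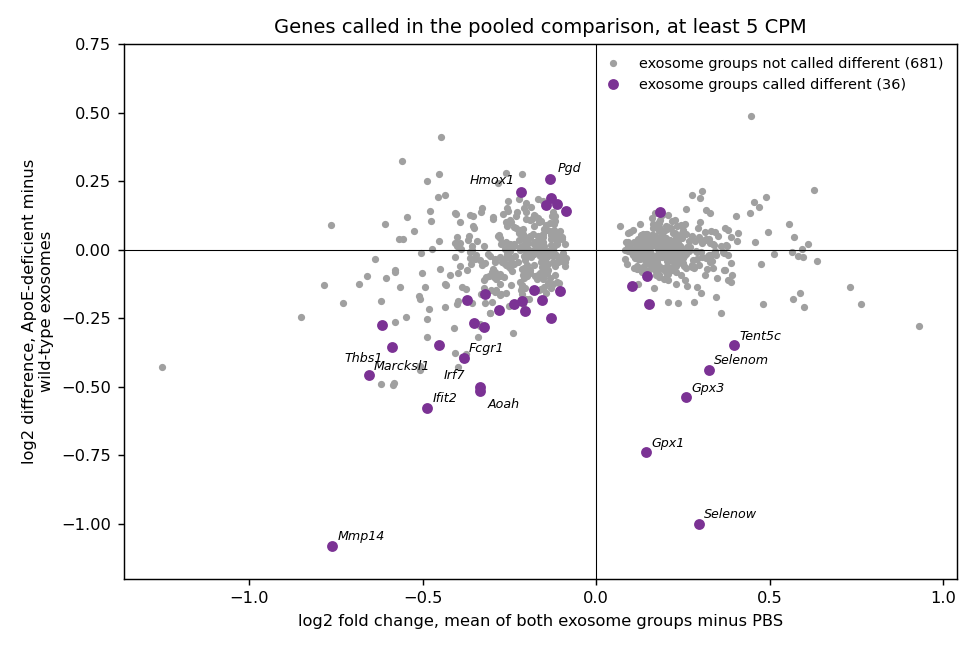
Each point is one of the 717 genes called in the pooled comparison with a mean of at least 5 CPM; the x axis is the pooled log2 fold change against PBS and the y axis the log2 difference of ApoE-deficient minus wild-type exosomes. The 36 purple points are genes whose exosome groups were called different, and the other 681 are grey; Selenow, Gpx1 and Mmp14 lie farthest below zero on the y axis.

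Hmox1, which breaks down heme, and Pgd, an enzyme of the pentose phosphate pathway, were lower after wild-type than after ApoE-deficient exosomes. Hmox1 had 1106, 1036 and 1033 CPM in the PBS libraries, 876, 855 and 806 after wild-type exosomes, and 1008, 984 and 947 after ApoE-deficient exosomes (-0.22 ± 0.029, adjusted p = 1.04e-06; 0.21 ± 0.033 between the exosome groups, adjusted p = 0.000183). Pgd was at -0.0046 after ApoE-deficient and at -0.26 after wild-type exosomes, and its pooled change of -0.13 ± 0.028 was not called without the 3 outlying exosome libraries (adjusted p = 0.108). With both exosome groups as one group, neither Hmox1 (0.231) nor Pgd (0.639) was called. A mixed list held 25 tested genes: targets of the oxidative stress factor NRF2 and genes of glutathione and the pentose phosphate pathway. Of these, 5 were called lower and 3 higher, and 7 differed between the exosome groups. Without the 3 outlying exosome libraries 2 were lower and none higher, with both exosome groups as one group 2 and 1, and higher calls numbered 1 without replicate 1 or 2 of ApoE-deficient exosomes and none without replicate 2 of PBS. Of 23 genes of the amino acid response to ATF4, Slc7a5, an amino acid transporter, was called lower and none higher, while 7 differed between the groups. Without replicate 3 of PBS 1 of the list was called higher and none lower. Slc7a5 had -1.24 after wild-type and -0.45 after ApoE-deficient exosomes. Its call ended in 7 of 17 alternatives, among them leaving out any 1 library of PBS, with adjusted p up to 0.170. Mthfd2, a folate enzyme of mitochondria, was not called (-0.36 ± 0.13) but had 8.35, 7.82 and 13.5 CPM after wild-type and 22.2, 29.1 and 25.2 CPM after ApoE-deficient exosomes, on either side of 18.8, 22.03 and 20.3 in PBS. It was called lower by limma-voom (adjusted p = 0.0328), with no filter on low counts (0.0303), without replicate 3 of wild-type exosomes (-0.50, 0.00296) and without the 3 outlying exosome libraries (-0.53, 0.00610).

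Chaperones of the endoplasmic reticulum rose by a few members. Of 22 tested, 4 were called higher and none lower (2 higher without the 3 outlying exosome libraries). Hspa5, the main chaperone BiP, had 489, 505 and 509.8 CPM in the PBS libraries, 546, 599 and 578 after wild-type exosomes, and 557, 552 and 563 after ApoE-deficient exosomes (0.18 ± 0.029, adjusted p = 6.68e-05), and Edem1, which marks misfolded glycoproteins for removal, rose from 319 to 358 CPM (0.17 ± 0.032). Of 17 heat shock proteins, 2 were called higher. Ahsa1, which activates the ATPase of Hsp90, rose from 178 to 209.7 CPM (0.24 ± 0.040). Hspd1, the mitochondrial chaperonin, was higher at 0.27 ± 0.071, with adjusted p = 0.189 without replicate 3 of PBS and 0.0516 without the 3 outlying exosome libraries.

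Genes of matrix and adhesion were split. Of 25 matrix genes and metalloproteinases, 4 were called higher and 5 lower. Besides Lgals3, the secreted phosphoprotein osteopontin, encoded by Spp1, rose from 1163 to 1364 CPM (0.23 ± 0.025; exon overlap 18.8%), and Mmp12, the macrophage elastase, from 254 to 292 CPM (0.20 ± 0.035). Tgfbi, a matrix protein induced by TGF-beta, fell with Thbs1, from 241 to 188 CPM (-0.36 ± 0.048). The membrane protease Mmp14, named after its values were seen, had 11.2, 13.2 and 8.07 CPM in PBS, 6.43, 11.6 and 9.79 after wild-type and 4.28, 3.88 and 4.98 after ApoE-deficient exosomes, for a pooled change of -0.76 ± 0.17. The difference between the exosome groups was -1.08 ± 0.21 (adjusted p = 0.00321), and the libraries of wild-type exosomes overlapped PBS. The number of matrix genes lower was 3, under the 4 higher, with both exosome groups as one group and without replicate 3 of wild-type exosomes, and 3 without replicate 2 of ApoE-deficient exosomes, replicate 1 or 2 of PBS, or the 3 outlying exosome libraries. Of 16 leukocyte integrins and partners, 5 were called lower and 2 higher. Itgal, the alpha chain of LFA-1, fell from 275 to 229 CPM (-0.27 ± 0.041) and Itga4 from 267 to 234 CPM (-0.19 ± 0.035). The higher calls, Itga5 and Tln1, were not made without replicate 1 of PBS, and 1 member was called higher without replicate 2 of PBS or the 3 outlying exosome libraries.

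Osteoclast genes gave no common direction. Of 10 tested, Gpnmb and Atp6v0d2 were higher, while Tnfrsf11a, the receptor RANK, was lower at -0.19 ± 0.043 and the transcription factor Mitf at -0.18 ± 0.043. Mitf was not called without replicate 2 of PBS (adjusted p = 0.0837) or the 3 outlying exosome libraries (0.103). Among 19 genes of cyclic AMP signalling, Rapgef3 and the deiodinase Dio2 were higher and 4 were lower, of which Pde3b, a phosphodiesterase that removes cyclic AMP, fell from 41.0 to 28.9 CPM (-0.51 ± 0.079, adjusted p = 2.08e-05). Leaving out replicate 1 of PBS left 1 of these 4 called, and leaving out replicate 3 of PBS, replicate 1 or 3 of ApoE-deficient exosomes, or the 3 outlying exosome libraries left 2. Dio2 was not called without replicate 1 or 2 of PBS or replicate 3 of ApoE-deficient exosomes (adjusted p up to 0.183). With both exosome groups as one group it was not called either (0.0594). Without the 3 outlying exosome libraries its change was 0.43, and it was not called.

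Other housekeeping and growth lists had few called members. Among 40 cytosolic ribosomal proteins, 30 genes of mitosis and 19 of fatty acid oxidation, none was called, with medians of -0.002, -0.07 and 0.05. In edgeR's test 2 mitosis genes and none of the other 2 lists had an unadjusted p under 0.05, and DESeq2 and limma-voom called none. Without replicate 3 of PBS 1 mitosis gene was called lower. Of 52 nuclear genes of the respiratory chain Ndufa4 was called higher (0.28), and not without replicate 2 or 3 of PBS (adjusted p = 0.156 and 0.0946), replicate 1 of ApoE-deficient exosomes or the 3 outlying exosome libraries. Of 31 DNA replication genes, Pcna, the sliding clamp of DNA polymerases, was called, with 109, 110.0 and 115 CPM in the PBS libraries, 134, 136 and 149 after wild-type exosomes, and 129, 138 and 136 after ApoE-deficient exosomes (0.30 ± 0.044, adjusted p = 9.67e-06); 2 of the list were called higher by DESeq2 and without replicate 3 of PBS, and leaving out replicate 3 of ApoE-deficient exosomes added a lower call, Tk1, thymidine kinase, at -0.59 (adjusted p = 0.0304). Of 21 glycolysis genes, Hk3, a hexokinase of myeloid cells, rose from 263 to 334 CPM (0.34 ± 0.042). Pkm, pyruvate kinase, was called lower at -0.09 ± 0.026 (exon overlap 15.3%). That call ended without replicate 1 or 2 of PBS, or 2 or 3 of either exosome group (adjusted p up to 0.388). It also ended with no filter on low counts (0.081) and with both exosome groups as one group (0.324). Without the 3 outlying exosome libraries the change of Pkm was -0.06, and it was not called. Of 28 genes of ESCRT, tetraspanins and exosome formation, 2 were called higher, Cd63 and Sdcbp, the latter encoding syntenin and rising from 663 to 729 CPM (0.14 ± 0.027).

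**Figure D5:**
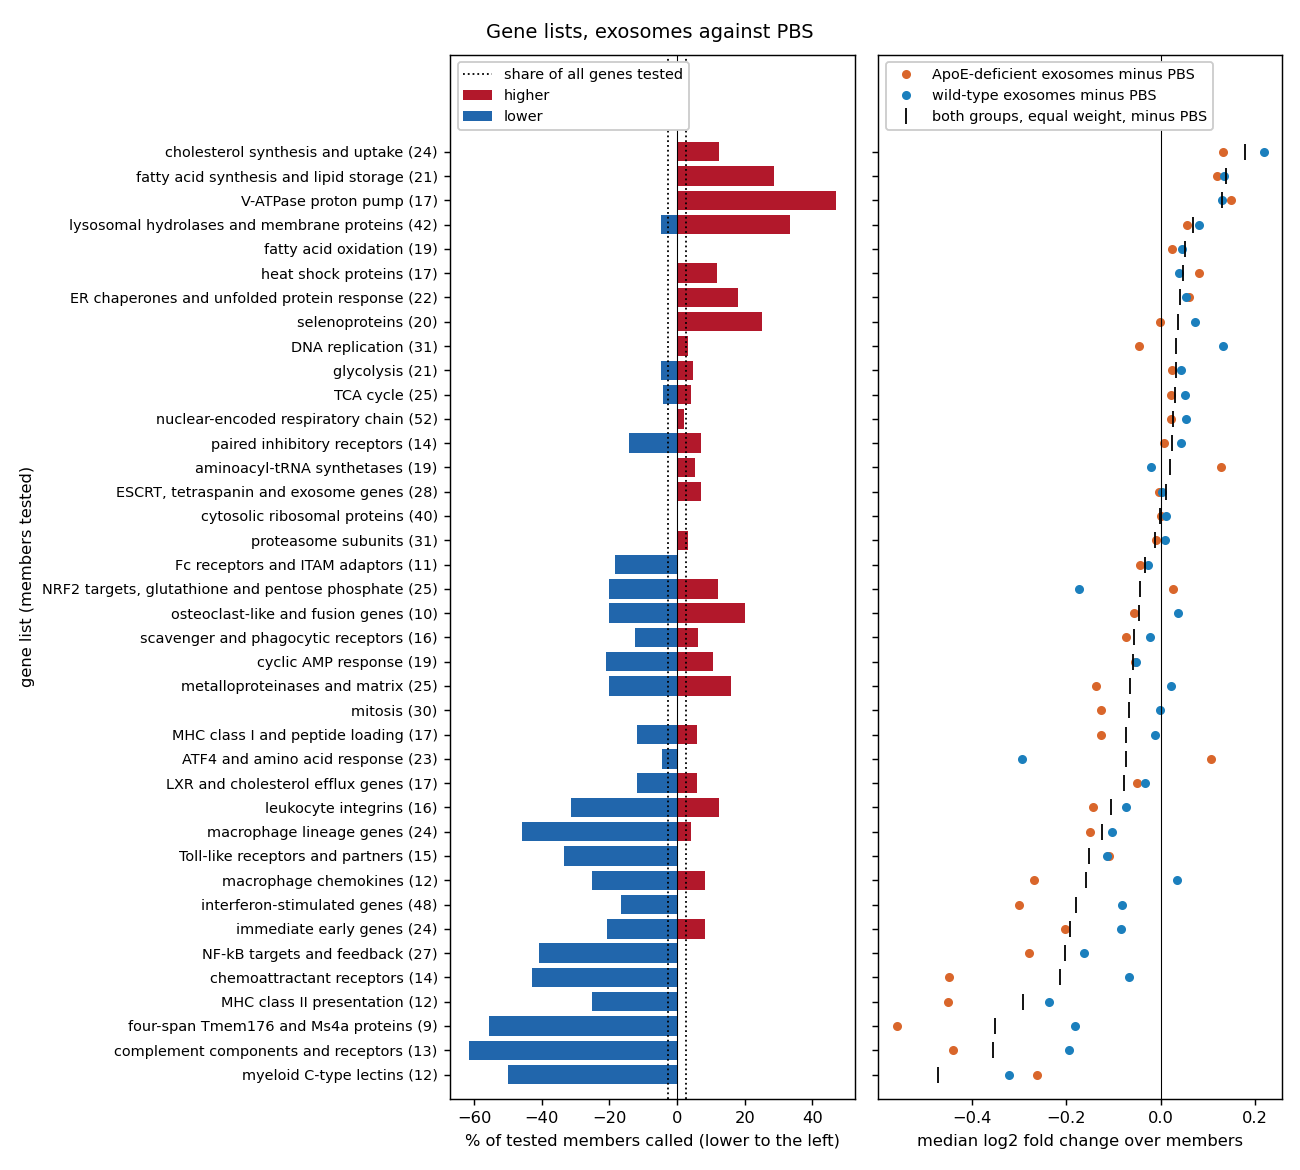
Left, percent of tested members of each list called lower (blue, to the left) or higher (red, to the right) in the pooled comparison, with dotted lines at the shares of all genes tested (2.79% lower, 2.52% higher). Right, the median log2 fold change of each list for wild-type exosomes, ApoE-deficient exosomes and both with equal weight, all against the same PBS libraries; C-type lectins and complement are at the bottom and cholesterol synthesis and the V-ATPase near the top.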

How the data were processed

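RNA was extracted on RNeasy columns and made into libraries with the Universal Plus mRNA-Seq kit, per the labels' protocols. Reads were aligned with STAR 2.7.5c to GRCm38, per the submitters' processing notes. The authors deposited raw read counts for 55536 genes in 9 libraries; 86 rows had no symbol in the GENCODE M21 annotation used here for names and were kept by identifier. The sources used here do not give the counting step or its use of strand.

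Genes were filtered with edgeR 4.0.16 (filterByExpr, minimum count 10), scaled by TMM and fitted with a robust quasi-likelihood model of 3 group means over all 9 libraries (R 4.3.3). The common biological coefficient of variation was 12%, and the code was tested on simulated data. The contrast was the mean of both exosome groups minus PBS, each exosome group with weight 0.5, with a Benjamini-Hochberg adjusted p under 0.05 over all genes tested as the threshold. Alternatives used DESeq2 1.42.0, limma-voom (limma 3.58.1), DESeq2 size factors within edgeR (RLE), no filter, a minimum count of 50, the replicate number as a block, a 2-group fit, and each library left out in turn. Leaving out the 3 outlying exosome libraries was added after seeing the data. Deviations of same-numbered libraries from their group means correlated by -0.035 to 0.040 across genes, so the numbers were not taken to pair the samples.

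Genes named are the 12 largest rises and 12 largest falls among called genes with a mean of at least 5 CPM, no overlap of exosome and PBS libraries and a symbol that is not a placeholder, the 12 lowest p-values, the 5 lowest p-values of each of 39 gene lists, and Apoe. Some genes that the rule names are not reported here. Other genes are said to be named after their values were seen or are given as not called. The comparison and the gene lists were chosen with earlier results of these data known. Motifs were searched in the 250 bases before each RefSeq gene start (GRCm38.p6) on both strands.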

Additional observations from a re-analysis of the deposited data

Results flagged for a closer look

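The following genes were among those called in the pooled comparison, or are on a list described above, and also differed between the exosome groups in edgeR's quasi-likelihood test of that difference (adjusted p under 0.05, ApoE-deficient minus wild-type exosomes on the log2 scale, 3 libraries in each). Complement genes were lower after ApoE-deficient exosomes, with -0.27 for C3, -0.18 for C1qa, -0.15 for C1qb and -0.18 for C1qc. Surface and signalling genes were as well, with -0.39 for Fcgr1, -0.28 for Ms4a6c and -0.46 for Marcksl1. The interferon-stimulated genes Ifit2 and Parp14 differed by -0.58 and -0.19, the matrix gene Thbs1 by -0.36, the cholesterol transporter Abca1 by -0.16 and the protease Ctsb by -0.10. The selenoprotein genes Gpx1, Gpx3, Selenow and Selenom differed by -0.74, -0.54, -1.0 and -0.44. In 3 of the genes named here the difference had the other sign, 0.21 for Hmox1, 0.26 for Pgd and 0.14 for Pkm. The genes named are not all that differed, so they do not give the balance of directions. Over all genes tested, 39 were called higher and 57 lower after ApoE-deficient than after wild-type exosomes. Calls of single genes in this comparison are not given without the 3 outlying exosome libraries, because too few libraries of wild-type exosomes then remain.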

How the results depend on the processing

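The number of genes called in the pooled comparison was 733 and ranged from 479 (without replicate 2 of PBS) to 689 when libraries were left out singly. It was 447 without the 3 outlying exosome libraries, of which 419 were among the 733. DESeq2 called 860 genes, limma-voom 796 and the 2-group fit 579, and 730, 725 and 579 of these were among the 733. The fit with a replicate block called 796 genes, 730 of them shared, and 144 between the exosome groups. Between the exosome groups, 96 genes were called by edgeR, 157 by DESeq2, 133 with no filter on low counts, 52 to 109 with libraries left out singly and 10 without the 3 outlying exosome libraries; the cause was not tested. Without the 3 outlying exosome libraries the wild-type exosome group holds 1 library. The lower count between the exosome groups there cannot be told apart from the loss of libraries. No named gene that was called changed sign under any setting run. The split of calls turned from more lower to more higher in 3 of the 17 settings, with 294 higher and 285 lower in the 2-group fit, 301 and 298 without replicate 2 of ApoE-deficient exosomes, and 316 and 309 without replicate 3 of PBS, in place of 348 and 385. The split also turned in at least 1 setting in 6 of the 39 lists (paired receptors, MHC class I, ATF4 response, aminoacyl-tRNA synthetases, scavenger receptors and matrix). Of 140 named genes called, 79 kept the call in every setting and 61 lost it in at least 1, and of 66 others taken by the naming rule, which were not called, 26 were called in at least 1. Of the 39 list medians, 5 changed sign in at least 1 setting, none larger in size than 0.0449. Changes under 0.653 in size were not called at levels under 5 CPM, which limits what can be said of low genes.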

Other observations

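Among markers of other cell types, 1 endothelial marker was called. Vwf, which encodes von Willebrand factor and was named after its values were seen, had 131, 139 and 149 CPM in the PBS libraries, 166, 188 and 174 after wild-type exosomes, and 186, 182 and 189.9 after ApoE-deficient exosomes (0.37 ± 0.044, adjusted p = 1.68e-07 in edgeR's quasi-likelihood test), higher in 6 of 6 exosome libraries. The summed endothelial markers, carried by Vwf, were 144 to 168 CPM after PBS, 180 to 206 after wild-type and 198 to 206 after ApoE-deficient exosomes. Emcn was at 0 in all 9 libraries, and Kdr, the receptor for VEGF, was not called (0.20 ± 0.13, adjusted p = 0.531). Gpr85, an orphan G protein-coupled receptor also named after its values were seen, was among the few genes lower by 2-fold or more, with 5.23, 7.75 and 5.16 CPM in the PBS libraries, 2.86, 1.54 and 2.38 after wild-type exosomes, and 3.22, 2.48 and 2.92 after ApoE-deficient exosomes (-1.24 ± 0.23, adjusted p = 0.000374).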
